A study of Mus musculus with 12 samples.

Results

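The cytochrome P450 genes of mouse liver were taken as the rows of the gene table whose symbol begins with Cyp followed by a digit, without 7 symbols of bile acid, sterol and fatty acid metabolism (Cyp7a1, Cyp7b1, Cyp8b1, Cyp27a1, Cyp51, Cyp4a10 and Cyp4a14). This gave 74 of the 21490 symbols in the table, and 37 of the 74 passed 6 reads per base pair (rpbp) in at least 1 library, among 6284 symbols that did so in all. Nascent RNA was measured by Nascent-Seq, which sequences RNA still attached to chromatin in purified nuclei. Livers came from C57BL/6 mice aged 3 to 6 months (male, by the methods of the study) that had spent at least 2 weeks in 12 hr of light and 12 hr of dark. All groups share this strain and cycle, and no other treatment is named. Collection was every 4 hr from ZT0 to ZT20, where ZT stands for zeitgeber time in hours and lights went on at ZT0. Each time point had 2 replicates (12 libraries), and no time point served as a control. Each value is the signal over the exons of a gene divided by their length. Only uniquely mapped reads were counted, so levels of different genes can be compared only roughly where relatives share sequence.

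Cytochrome P450 enzymes are haem proteins that insert an oxygen atom into their substrates. In hepatocytes most of them sit in the membrane of the endoplasmic reticulum and take electrons from P450 oxidoreductase (Por), with cytochrome b5 as a further donor. Enzymes of the Cyp1, Cyp2 and Cyp3 families act mainly on drugs, other foreign compounds and steroids, and those of the Cyp4 family mainly on fatty acids and eicosanoids. In mice the Cyp2a, Cyp2b, Cyp2c, Cyp2d, Cyp2j, Cyp3a, Cyp4a and Cyp4f genes lie in tandem clusters of close relatives, several are made mostly in 1 sex, and several are made mostly near the central vein (Cyp2e1, Cyp1a2) or near the portal vein (Cyp2f2) of the liver lobule.

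Promoter sequence was printed for the members whose time profiles the results turn on and whose start site was covered by the RefSeq promoter windows (250 bases before to 50 bases after the annotated start, from GRCm38.p6). Of the 74 members, 60 had at least 1 such window, found letter for letter in mm9, whose coordinates are given. Cyp2c44, Cyp2u1, Cyp4a31 and Cyp2d13 had none. The windows of Cyp2e1 (chr7:147949468-147949767, plus strand), Cyp2a5 (chr7:27620108-27620407, plus strand) and Cyp3a13 (chr5:138362798-138363097, minus strand) belong to genes called rhythmic. Those of Cyp2c38 (chr19:39537516-39537815, minus strand) and Cyp3a25 (chr5:146821144-146821443, minus strand) belong to genes that differed between time points and were not called rhythmic. Each window is written 5′ to 3′ on the strand of the gene, and capitals mark the TATA box letters TATAAA and the nuclear receptor half-site AGGTCA or its reverse TGACCT.
Cyp2e1: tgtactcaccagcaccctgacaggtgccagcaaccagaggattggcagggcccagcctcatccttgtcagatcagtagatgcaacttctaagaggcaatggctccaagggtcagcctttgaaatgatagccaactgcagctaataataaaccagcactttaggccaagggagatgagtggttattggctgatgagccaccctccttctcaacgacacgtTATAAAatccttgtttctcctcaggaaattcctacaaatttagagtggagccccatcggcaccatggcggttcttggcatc
Cyp2a5: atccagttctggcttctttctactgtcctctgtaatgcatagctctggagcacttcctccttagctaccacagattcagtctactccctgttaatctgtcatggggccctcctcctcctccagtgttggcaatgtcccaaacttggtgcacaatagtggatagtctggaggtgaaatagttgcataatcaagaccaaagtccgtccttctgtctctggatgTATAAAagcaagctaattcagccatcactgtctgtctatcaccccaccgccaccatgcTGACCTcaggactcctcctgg
Cyp3a13: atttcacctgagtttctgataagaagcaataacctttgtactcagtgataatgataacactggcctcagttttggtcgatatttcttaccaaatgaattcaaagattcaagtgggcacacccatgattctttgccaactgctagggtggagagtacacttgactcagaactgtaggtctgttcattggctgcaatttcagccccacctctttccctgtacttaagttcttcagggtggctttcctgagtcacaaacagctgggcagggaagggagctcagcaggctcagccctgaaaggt
Cyp2c38: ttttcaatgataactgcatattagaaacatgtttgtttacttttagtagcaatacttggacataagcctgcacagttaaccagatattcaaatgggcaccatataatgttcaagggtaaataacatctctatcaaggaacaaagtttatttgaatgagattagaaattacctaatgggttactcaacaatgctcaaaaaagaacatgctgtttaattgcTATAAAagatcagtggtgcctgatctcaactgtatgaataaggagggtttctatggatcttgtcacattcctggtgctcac
Cyp3a25: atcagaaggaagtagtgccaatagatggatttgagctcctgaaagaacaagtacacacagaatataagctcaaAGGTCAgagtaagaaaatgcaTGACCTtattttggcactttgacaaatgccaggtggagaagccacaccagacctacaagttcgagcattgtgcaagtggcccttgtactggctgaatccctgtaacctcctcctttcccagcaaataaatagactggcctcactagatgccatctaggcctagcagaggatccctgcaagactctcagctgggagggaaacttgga

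The letters TATAAA (either strand) stood in the windows of 26 of the 60 members (43.3%), against 13.6% of all 32544 promoter windows of the table. In Cyp2e1 and Cyp2c38 the first T of TATAAA lay 31 bases before the annotated start, and in Cyp2a5 it lay 29 bases before it. Cyp3a13 held none of the motifs searched. The half-site AGGTCA (either strand), which nuclear receptors bind, stood in those of 17 of the 60 members (28.3%, against 16.2% of all windows), and Cyp3a25 held a copy on each strand. The HNF4 motif CAAAGTCCA stood in 6 (10% against 0.479%). The E-box CACGTG, which the clock factors CLOCK and BMAL1 bind, stood in the windows of Cyp2j6 and Cyp4v3 (3.33% against 7.17%). The D-box (TTATGTAA or TTACGTAA), which Dbp and Tef bind, stood in 0 of 60 (against 1.05%). The core GCGTG, which the aryl hydrocarbon receptor binds, stood in 13 (21.7% against 32.6%). Many member windows come from recent copies of 1 gene and are not independent, and a match of letters is a description only. No motif searched holds another.

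Hepatocyte genes were high in every library (Alb 160.3 to 951.7 rpbp). The 4 cholangiocyte markers in the table summed to 1 to 2.5 rpbp, where Krt7 and Krt19 did not pass 0.3 rpbp and Sox9 reached 2.1. The 4 stellate cell markers summed to 8 to 12.8 rpbp. The summed level of 6 Kupffer cell markers was 19.4 to 68.1 rpbp, with the highest value in ZT8 replicate 1. In that library Marco stood at 20.5 rpbp against 0.1 to 1.8 in the other libraries. Cd5l (23.9 rpbp, median of all libraries 7.9) and Emr1 (17.3 rpbp, median 3.8) were also highest there. Clec4f (1.6 rpbp) and Vsig4 were lowest there, and Cd68 lay within its range over the other libraries. Of 4 tested Kupffer cell markers, Clec4f differed between time points (limma adjusted p = 0.036), with means of 4.05 rpbp at ZT8 and 22.1 at ZT12. Of 2 tested endothelial markers, Clec4g was called rhythmic by the permutation test used for the members (3.8 to 8.8 rpbp, phase 17.7 hr, permutation p = 0.0118), and the 5 endothelial markers summed to 12.6 to 25.7 rpbp. The part of other cell types in the results was not tested. The summed signal of the members was 704.7 rpbp in ZT0 replicate 1 and 1741 rpbp in ZT8 replicate 2, which is 0.595% and 1.41% of all signal in those libraries, the lowest and highest shares of the 12. The median log2 deviation of all tested symbols from their mean over the libraries ranged from −0.205 in ZT16 replicate 2 to 0.130 in ZT0 replicate 2. Fewer cells of a type and less RNA per cell cannot be told apart in such bulk samples. The table holds values scaled to equal read numbers and no counts, and the read numbers that the study lists for each library did not enter the tests. Each library of ZT8 and ZT20 was sequenced in 2 lanes and each of the other 8 libraries in 1 lane, so number of lanes and time of day cannot be told apart for any difference of ZT8 and ZT20 together from the rest.

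A few subfamilies carried most of the signal. The Cyp2d genes held 31.5% of the members' summed mean level, the Cyp2c genes 15.7%, Cyp2e1 14.5% and the Cyp3a genes 12%, and the 8 members with the highest mean held 61.1%. The 37 members under 6 rpbp held 1.68% together. These shares rest on uniquely mapped reads and leave out sequence that relatives share. Of the 74, 14 passed 6 rpbp in all 12 libraries, 4 passed it in a single library and 5 were listed at 0 throughout (Cyp2c66, Cyp2c69, Cyp3a44, Cyp4a29 and Cyp4f37). Tested members varied more between libraries than tested symbols in general. The median coefficient of variation over the 12 libraries was 0.524 for the members and 0.252 for all tested symbols, and no test was run on that difference.

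**Figure D1:**
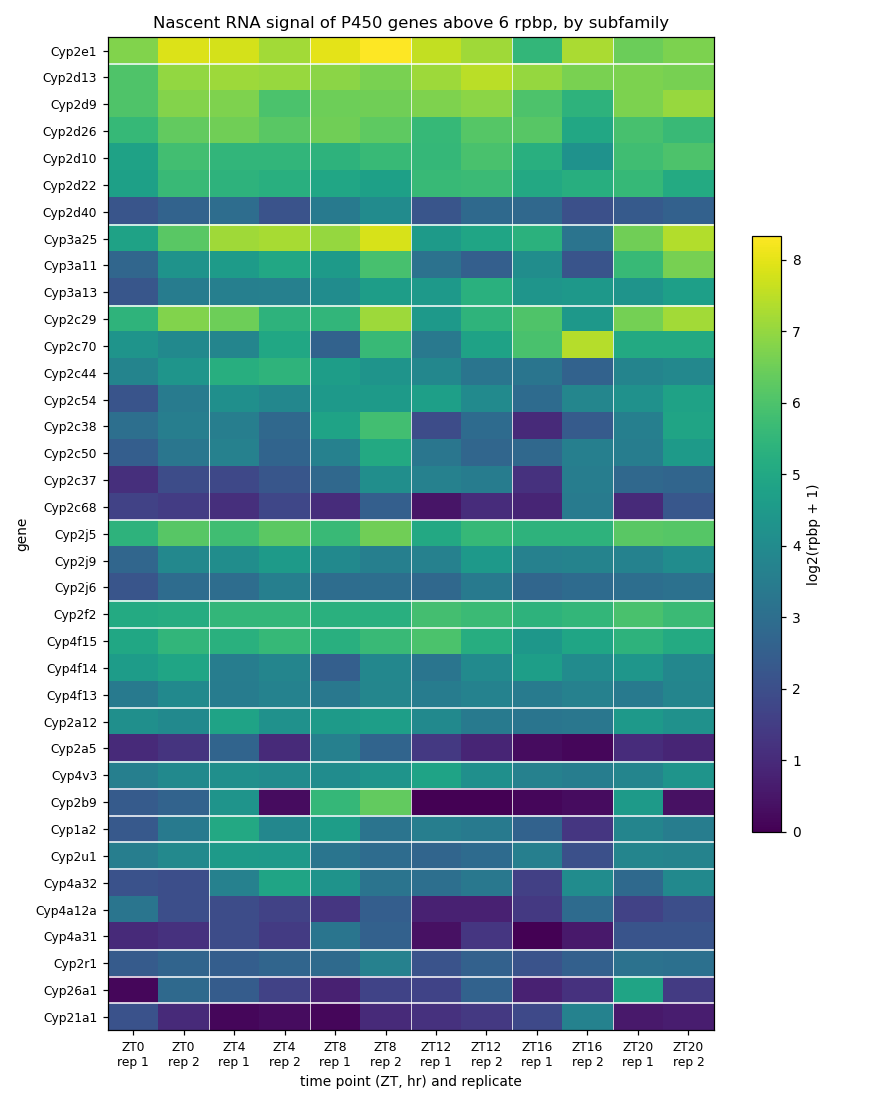
Nascent RNA signal, as log2(rpbp + 1) by colour, of the 37 members above 6 rpbp in at least 1 library (rows, grouped by subfamily) in the 12 libraries (columns, by ZT and replicate). Cyp2e1 and Cyp2d13 are high throughout, while Cyp2b9 runs from 0 to 79.2 rpbp and Cyp2c70 reaches 168.6 rpbp in ZT16 replicate 2.

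To ask which P450 genes are transcribed rhythmically, the share of the variance of the 12 values that lies in a 24-hr cosine (F24) was tested by permutation. Rhythmic genes had a one-sided permutation p under 0.05 before adjustment, an F24 above 0.45 and a ratio of highest to lowest value above 1.5. Of the 37 tested members 5 were called (13.5%), against 15.1% of all tested symbols, so the share was near the background. They were Cyp2u1, Cyp2c44, Cyp2e1, Cyp2a5 and Cyp3a13, in order of phase. Only Cyp2c44 was strong (F24 over 0.6 and a ratio over 1.75), 2.7% of the members against 6.38% of all. Only Cyp2c44 kept a permutation p under 0.05 after Benjamini-Hochberg adjustment over all 6284 symbols. The median F24 was 0.232 for the members and 0.222 for all tested symbols.

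Cyp2c44 (chr19:44079512-44103689, minus strand, mm9) encodes an epoxygenase of arachidonic acid. Its values in rpbp, replicate 1 before replicate 2 here and throughout, were 12.7 and 19.2 at ZT0, 36.6 and 41.4 at ZT4, 23.9 and 18.9 at ZT8, 13.6 and 8.4 at ZT12, 8.4 and 5.2 at ZT16 and 12.7 and 13.7 at ZT20. Both ZT4 libraries lay above the other 10, and both ZT16 libraries were at or below all others. The time-point mean fell from 39 ± 3.39 (SD, n = 2) rpbp at ZT4 to 6.8 ± 2.26 (SD, n = 2) at ZT16. F24 was 0.734 with a peak at 4.28 hr (permutation p = 0.00025, adjusted p = 0.0462), and the peak-to-trough difference of the fitted cosine was 1.98 ± 0.30 (SE) on the log2(rpbp + 1) scale. Series of replicate 1 and replicate 2 peaked at 5.16 and 3.58 hr, and the gene stayed rhythmic with any single library left out. With the lanes as a block (values permuted separately among libraries of 1 lane and of 2 lanes) the permutation p was 0.00111 and the adjusted p 0.0943. It lies on the same chromosome as the tandem Cyp2c genes but apart from them, and none of the 80-base windows (the length of a read) of its transcripts occurred in another coding transcript. The tandem Cyp2c genes were not called.

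Cyp2u1 (chr3:130993409-131006145, minus strand), which encodes a fatty acid hydroxylase, had the earliest fitted phase of the 5, though its highest values were at ZT4, as for Cyp2c44. Its values in rpbp were 10.8 and 14.2 at ZT0, 22.2 and 21.4 at ZT4, 8.4 and 6.7 at ZT8, 5.6 and 6.6 at ZT12, 11.1 and 3.1 at ZT16 and 13.0 and 12.2 at ZT20. The pair at ZT4 lay above all other libraries, with a mean of 21.8 ± 0.566 (SD, n = 2) rpbp, whereas the replicates differed widely at ZT16. F24 was 0.580 at 1.81 hr (permutation p = 0.0175, adjusted p = 0.199), with a peak-to-trough difference of 1.52 ± 0.37 (SE) on the log2(rpbp + 1) scale. The call was lost without ZT16 replicate 2 (permutation p = 0.0504). It was also lost with the lanes as a block, with a permutation p of 0.0563.

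Cyp2e1 (chr7:147949731-147960876, plus strand), the pericentral enzyme that oxidizes ethanol and other small solvents, was the highest member. Its values in rpbp were 106.4 and 238.3 at ZT0, 219.4 and 144.8 at ZT4, 255.2 and 322.3 at ZT8, 191.3 and 141.5 at ZT12, 44.9 and 155.1 at ZT16 and 87.8 and 101.8 at ZT20. Both ZT8 libraries lay above all others, whereas the replicates of ZT0 and of ZT16 stood far apart. The mean was 289 ± 47.4 (SD, n = 2) rpbp at ZT8 and 94.8 ± 9.90 (SD, n = 2) at ZT20. F24 was 0.562 at 6.79 hr (permutation p = 0.0275, adjusted p = 0.236), with a peak-to-trough difference of 1.56 ± 0.42 (SE) on the log2(rpbp + 1) scale. The call held in 7 of the 12 fits that left out 1 library, and was lost without either ZT8 library, either ZT20 library or ZT16 replicate 1, where the permutation p reached at most 0.0791 (without ZT8 replicate 2). It was also lost with the lanes as a block (permutation p = 0.0752).

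Cyp2a5 (chr7:27620358-27628283, plus strand), the coumarin 7-hydroxylase, had low values that were highest at ZT8. In rpbp they were 1.0 and 1.4 at ZT0, 5.5 and 1.0 at ZT4, 11.5 and 5.4 at ZT8, 1.6 and 0.8 at ZT12, 0.2 and 0.1 at ZT16 and 1.1 and 0.8 at ZT20. The 2 libraries of ZT8 and ZT4 replicate 1 stood at 5.4 to 11.5 rpbp and the other 9 at 1.6 or less, so ZT4 replicate 2 (1.0 rpbp) lay with the low group. It passed 6 rpbp in ZT8 replicate 1 only, and so entered the tests through the time point at which it was highest. F24 was 0.480 at 6.90 hr (permutation p = 0.0103, adjusted p = 0.163), with a peak-to-trough difference of 2.23 ± 0.52 (SE) on the log2(rpbp + 1) scale, which understates the change of genes this low. The call was lost without ZT4 replicate 1 and without ZT8 replicate 2. Its limma adjusted p of 0.0365 was 0.0566 with the GC trend of each library removed (its median log2 deviation in each of 20 bins of exon GC subtracted) and 0.059 with the lanes as a block. Of the 80-base windows of its transcripts, 14.1% also occurred in other coding transcripts, those of Cyp2a4, a close relative that did not pass 0.4 rpbp here.

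Cyp3a13 (chr5:138334161-138362845, minus strand), a member of the drug-metabolizing Cyp3a subfamily, had the latest phase of the 5. Its values in rpbp were 3.7 and 10.2 at ZT0, 11.2 and 11.3 at ZT4, 15.8 and 24.2 at ZT8, 21.7 and 38.4 at ZT12, 19.5 and 20.8 at ZT16 and 19.0 and 25.1 at ZT20. Every library of ZT0 and ZT4 lay below every library of the later time points, and ZT12 replicate 2 was the highest. F24 was 0.595 at 13.3 hr (permutation p = 0.0113, adjusted p = 0.172), with a peak-to-trough difference of 1.67 ± 0.40 (SE) on the log2(rpbp + 1) scale. The series of replicate 1 peaked at 13.7 hr and that of replicate 2 at 13.0 hr, and the call held with any single library left out. The limma adjusted p was 0.0537. Exon GC was 42.4%, and with the GC trend removed F24 was 0.777 (adjusted permutation p = 0.0382, limma adjusted p = 0.0246). With the lanes as a block the adjusted permutation p was 0.163 and the limma adjusted p 0.0675. The other tested genes of the subfamily, Cyp3a25 and Cyp3a11, had their highest means at ZT8 and ZT20.

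**Figure D2:**
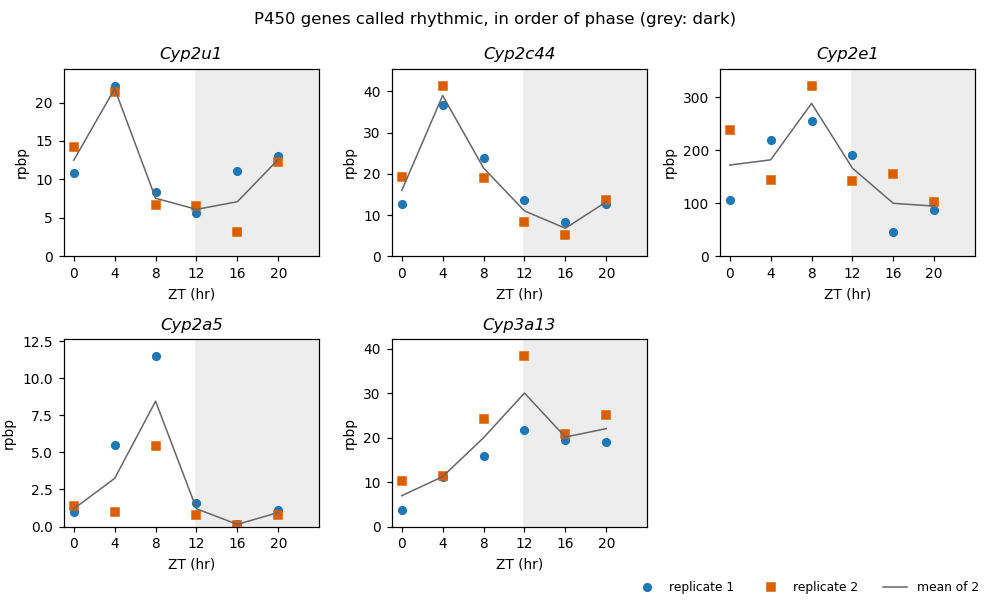
Signal in rpbp (vertical) against ZT in hr (horizontal) for the 5 members called rhythmic, with a circle for replicate 1, a square for replicate 2 and a line through the means of 2, and the dark phase in grey. Cyp2u1 and Cyp2c44 are highest at ZT4, Cyp2e1 and Cyp2a5 at ZT8, and Cyp3a13 at ZT12.

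The 6 time points were also compared, whatever the shape of the profile, with limma (moderated F-test, log2(rpbp + 1) values). At an adjusted p under 0.05, 6 of the 37 tested members differed (16.2%), against 7.65% of all tested symbols. At an unadjusted limma p under 0.05 it was 17 of 37 (45.9%), against 27.6% of all, and the difference of these shares was not tested. Of the 6, Cyp2a5 and Cyp4a31 passed 6 rpbp in ZT8 replicate 1 only, at the time point of their highest mean, so the count is a description only. Cyp2c44 (limma adjusted p = 0.0122) and Cyp2a5 (limma adjusted p = 0.0365) were also rhythmic, and the other 4 were Cyp4a31, Cyp2c38, Cyp3a25 and Cyp2a12. Each of these 4 had its highest mean at ZT8 and its 2 lowest at ZT12 and ZT16. With the lanes as a block, only Cyp2c44 of the 6 kept an adjusted limma p under 0.05 (1 member against 4.65% of all symbols).

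Cyp3a25 (chr5:146788793-146821184, minus strand), which hydroxylates steroids and drugs, was the third highest member. Its values in rpbp were 26.8 and 73.5 at ZT0, 140.6 and 152.2 at ZT4, 129.1 and 224.9 at ZT8, 22.1 and 28.7 at ZT12, 39.0 and 8.2 at ZT16 and 92.3 and 167.0 at ZT20. All 6 libraries of ZT4, ZT8 and ZT20 lay above all 6 of ZT0, ZT12 and ZT16. The mean was 177 ± 67.7 (SD, n = 2) rpbp at ZT8 and 23.6 ± 21.8 (SD, n = 2) at ZT16, with a limma adjusted p of 0.0355. F24 was 0.316 (permutation p = 0.181). With the lanes as a block F24 was 0.543 (permutation p = 0.0393) and the gene was called rhythmic. Exon GC was low (40.1%), and with the GC trend of each library removed the limma adjusted p was 0.0622. It was under 0.05 in 4 of the 12 fits that left out 1 library, and at most 0.0823 (without ZT12 replicate 1).

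Cyp3a11 (chr5:146666183-146691430, minus strand), the main drug-inducible Cyp3a gene of mouse liver, ran from 3.5 rpbp in ZT16 replicate 2 through a median of 20.4 to 98.8 in ZT20 replicate 2. It was highest at ZT20 (47.7 and 98.8 rpbp) and lowest at ZT12 (7.8 and 4.8 rpbp), and its limma adjusted p was 0.0539.

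Cyp2c38 (chr19:39464046-39537565, minus strand), an arachidonic acid oxygenase of the Cyp2c cluster, had values in rpbp of 7.2 and 10.8 at ZT0, 10.8 and 6.0 at ZT4, 27.5 and 55.8 at ZT8, 2.8 and 6.5 at ZT12, 1.0 and 4.2 at ZT16 and 11.2 and 28.4 at ZT20. ZT8 replicate 2 alone held 55.8 rpbp, and the next highest values came from ZT20 replicate 2 and ZT8 replicate 1. The limma adjusted p was 0.0280, staying under 0.05 in 8 of the 12 fits that left out 1 library, and F24 was 0.144 (permutation p = 0.547). Exon GC was 39.6%, and the limma adjusted p was 0.0447 with the GC trend removed, 0.0868 without ZT8 replicate 2 and 0.235 with the lanes as a block.

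Cyp4a31 (chr4:115190906-115205473, plus strand) and Cyp4a32 belong to the fatty acid omega-hydroxylases next to Cyp4a10. For Cyp4a31 the values in rpbp were 1.0 and 1.3 at ZT0, 2.8 and 1.7 at ZT4, 8.5 and 5.0 at ZT8, 0.3 and 1.5 at ZT12, 0.0 and 0.5 at ZT16 and 3.5 and 3.5 at ZT20. Only ZT8 replicate 1 passed 6 rpbp, so the gene entered the test through the time point at which it was highest, and both libraries of ZT8 and of ZT20 lay above all others. The limma adjusted p was 0.0138 and stayed under 0.05 with any single library left out (at most 0.0425), but was 0.123 with the lanes as a block. F24 was 0.214 (permutation p = 0.344). With the lanes as a block F24 was 0.621 (permutation p = 0.00934) and Cyp4a31 was called rhythmic. Of its 80-base windows 11.5% occurred in other coding transcripts, and its span overlaps that of Cyp4a10 in the table, so its level is uncertain.

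Cyp2a12 (chr7:27814109-27821834, plus strand), a steroid hydroxylase, had values in rpbp of 16.6 and 14.6 at ZT0, 27.8 and 17.5 at ZT4, 22.2 and 24.5 at ZT8, 14.6 and 9.5 at ZT12, 8.4 and 8.9 at ZT16 and 21.4 and 17.6 at ZT20. Both ZT16 libraries were the lowest of the 12 and ZT4 replicate 1 was the highest. The mean fell from 23.4 ± 1.63 (SD, n = 2) rpbp at ZT8 to 8.65 ± 0.354 (SD, n = 2) at ZT16, with a limma adjusted p of 0.0425. The limma adjusted p was 0.0782 with the libraries rescaled to equal medians, and it was under 0.05 in only 2 of the 12 fits that left out 1 library. F24 was 0.489 at 4.06 hr (permutation p = 0.0551), so Cyp2a12 was not called rhythmic. It was called on log values, and with the lanes as a block (F24 of 0.678, permutation p = 0.00053).

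**Figure D3:**
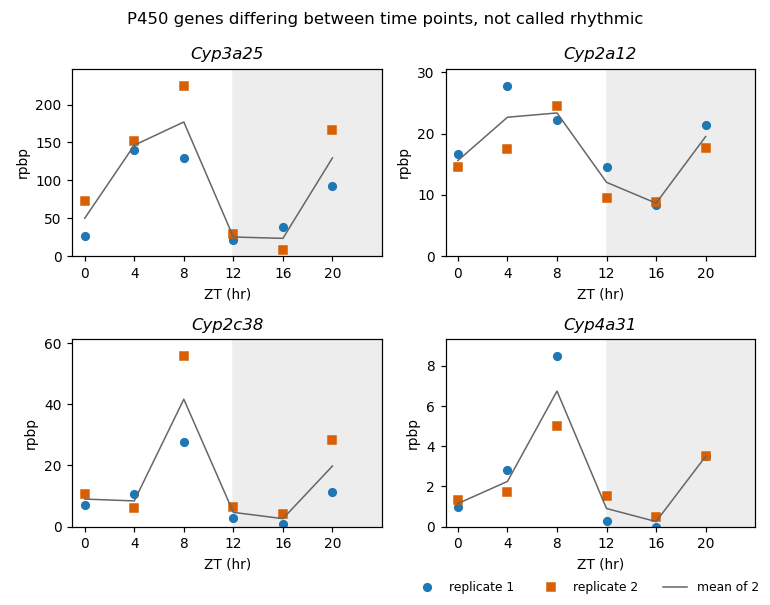
Signal in rpbp (vertical) against ZT in hr (horizontal) for the 4 members that differed between time points and were not called rhythmic (circle for replicate 1, square for replicate 2, line through the means of 2, dark phase in grey). In Cyp3a25, Cyp4a31 and Cyp2c38 the ZT8 and ZT20 means stand above those of ZT12 and ZT16.

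Low GC content of the exons went with high values in particular libraries. Of the 36 tested members whose exon GC was known, 14 were under 45%, most of them in the Cyp2c, Cyp2j and Cyp3a subfamilies, and 22 were at or above it. In ZT8 replicate 2 the median log2(rpbp + 1) deviation from the mean of the 12 libraries was 0.96 for the members under 45% and 0.24 for the others, and for all tested symbols it was 0.45 and −0.19. In ZT20 replicate 2 the members stood at 0.65 and 0.02, and in ZT8 replicate 1 at 0.14 and 0.04. ZT8 replicate 2 was the highest library for 9 of the 37 members (24.3%), against 19.8% of all tested symbols, and for 6 of the 14 members of low GC. The part of GC content in the differences between time points was not tested beyond the fits with the GC trend removed.

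**Figure D4:**
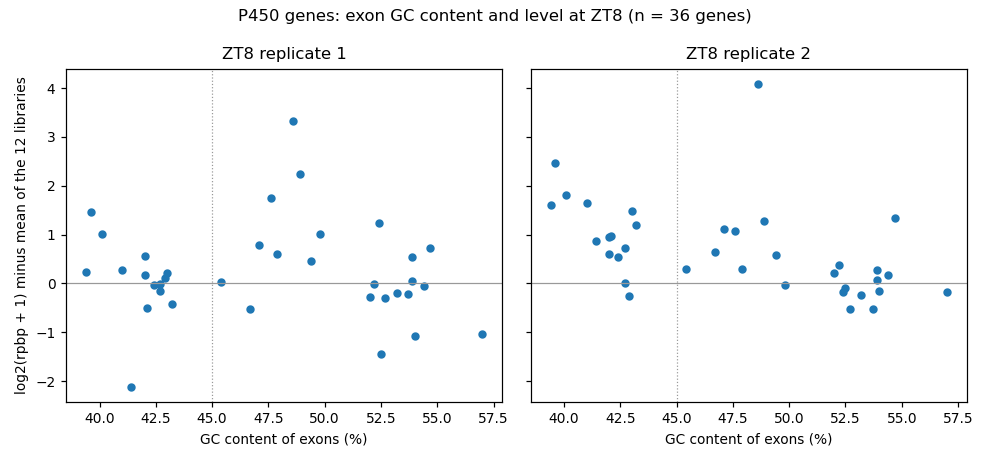
GC content of the exons in percent (horizontal) and the log2(rpbp + 1) value minus its mean over the 12 libraries (vertical) for the 36 members of known GC in the ZT8 libraries, replicate 1 on the left and replicate 2 on the right; each point is a gene and the dotted line marks 45%. In replicate 2 the points under 45% lie mostly above 0, with Cyp2c38 at 2.47, and the highest point, Cyp2b9 at 4.09, has 48.6% GC.

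By time-point means, the members were most often highest at ZT8 (12 of 37, 32.4% against 24% of all tested symbols) and ZT20 (8 of 37, 21.6% against 11.9%). They were least often highest at ZT0 and ZT16 (3 each, 8.11%, against 11.6% and 7.56% of all). They were most often lowest at ZT16 (15 of 37, 40.5% against 34.3%) and at ZT0 (11 of 37, 29.7% against 9.66%). After rescaling to equal medians, 13 were highest at ZT8 (35.1% against 27.5% of all). ZT0 and ZT16 were then lowest for 11 each (29.7%, against 13.2% and 15.1% of all). No test was run on these counts, since genes are not replicates.

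The Cyp2d genes, relatives of the human drug oxidase CYP2D6, were abundant, and neither test called any of the 6 tested members. Cyp2d13 (chr15:82466617-82472475) had values in rpbp of 65.4 and 125.8 at ZT0, 138.8 and 131.6 at ZT4, 116.2 and 99.8 at ZT8, 136.2 and 178.2 at ZT12, 128.6 and 101.1 at ZT16 and 103.4 and 98.8 at ZT20. Apart from ZT0 replicate 1 the libraries lay between 98.8 and 178.2 rpbp, and its coefficient of variation was 0.237. Cyp2d26 (chr15:82620537-82624675) had values in rpbp of 47.1 and 80.2 at ZT0, 90.5 and 73.0 at ZT4, 92.4 and 76.4 at ZT8, 46.9 and 70.0 at ZT12, 71.5 and 30.8 at ZT16 and 59.1 and 49.7 at ZT20, with F24 of 0.467 at 5.60 hr and a permutation p of 0.0652. With the GC trend removed it was called rhythmic.

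Cyp2d9 (chr15:82282829-82287257), a testosterone 16-alpha-hydroxylase made mostly in males, had values in rpbp of 64.2 and 109.6 at ZT0, 105.9 and 62.0 at ZT4, 89.5 and 91.0 at ZT8, 104.5 and 118.2 at ZT12, 63.8 and 41.3 at ZT16 and 101.4 and 131.6 at ZT20. The replicates of ZT0 and of ZT4 stood far apart, and F24 was 0.00325 (permutation p = 0.985). Cyp2d10 (chr15:82233276-82237612) had values in rpbp of 27.1 and 55.2 at ZT0, 44.0 and 43.4 at ZT4, 41.2 and 48.5 at ZT8, 45.7 and 61.0 at ZT12, 37.0 and 18.0 at ZT16 and 53.7 and 64.0 at ZT20, with the lowest in ZT16 replicate 2, as for Cyp2d9. Of the 80-base windows of Cyp2d10 and Cyp2d9, 21.4% and 15.7% occurred in other coding transcripts, and since reads had to map uniquely their levels are uncertain. Cyp2d22 ran from 25.5 to 49.9 rpbp and Cyp2d40 from 3.1 to 15.4 rpbp, the highest in ZT8 replicate 2. Cyp2d11 and Cyp2d12 did not pass 1.1 rpbp.

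Of the 14 Cyp2c genes 8 were tested, Cyp2c44 among them, and in the tandem cluster Cyp2c29 (chr19:39343895-39405203), a pericentral gene, was the highest. In the 12 libraries its values in rpbp were 42.2 and 107.5 at ZT0, 90.0 and 41.1 at ZT4, 43.7 and 137.0 at ZT8, 21.9 and 42.1 at ZT12, 65.4 and 20.8 at ZT16 and 96.0 and 144.7 at ZT20. The highest were ZT20 replicate 2 and ZT8 replicate 2, the replicates of ZT8 stood far apart, and neither test called it (permutation p = 0.451, limma adjusted p = 0.320). Cyp2c70 (chr19:40227851-40261761), which 6-hydroxylates bile acids into muricholic acids, ran from 5.2 rpbp in ZT8 replicate 1 through a median of 28.4 to 168.6 in ZT16 replicate 2. Its ZT16 values were 60.3 and 168.6 rpbp, the 2 highest of the 12, and the limma adjusted p was 0.224.

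The other tested Cyp2c genes were lower. Cyp2c54 ran from 3.5 to 27.2 rpbp, Cyp2c50 from 4.6 to 32.4 and Cyp2c37 from 1.2 to 16.2, the latter 2 highest in ZT8 replicate 2. Cyp2c68 ran from 0.4 to 10.1 rpbp and passed 6 rpbp in ZT16 replicate 2 only. The remaining 6 (Cyp2c67, Cyp2c55, Cyp2c39, Cyp2c40, Cyp2c66 and Cyp2c69) did not pass 5.3 rpbp. Shared 80-base windows were frequent in Cyp2c40 (46.5%), Cyp2c67 (33.2%) and Cyp2c68 (26.3%), and reads that matched more than 1 gene were not counted.

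Among the epoxygenases of the Cyp2j cluster, Cyp2j5 (chr4:96294123-96330810) had values in rpbp of 41.2 and 70.4 at ZT0, 54.4 and 75.1 at ZT4, 48.7 and 90.7 at ZT8, 31.4 and 46.9 at ZT12, 41.0 and 41.2 at ZT16 and 72.6 and 69.2 at ZT20. ZT8 replicate 2 was again the highest, and neither test called it (permutation p = 0.314, limma adjusted p = 0.281). Cyp2j9 ran from 5.7 to 22.1 rpbp and Cyp2j6 from 3.6 to 11.1, both highest at ZT4 in replicate 2. Cyp2j8 and Cyp2j11 did not pass 1.2 rpbp.

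The periportal gene Cyp2f2 (chr7:27904974-27918679), known for activating naphthalene, was among the steadiest members. It ran from 32.9 to 60 rpbp (coefficient of variation 0.190), with ZT12 at 56.1 and 50.5, ZT20 at 60 and 50.8 and ZT0 at 32.9 and 34.6 rpbp. The limma adjusted p was 0.105. The 7 genes listed as pericentral (Cyp2e1, Cyp1a2, Cyp2c29, Cyp2c37, Cyp2c50, Cyp2a5 and Cyp3a11) all passed 6 rpbp in at least 1 library. Cyp2a5 did so only in ZT8 replicate 1, where it was highest. Of the 7, 2 (Cyp2e1 and Cyp2a5) were rhythmic, against 15.1% of all tested symbols. The list was chosen with earlier results of these data known, so the count is a description only. Cyp1a2 (chr9:57524744-57531462), which oxidizes caffeine and aromatic amines, ran from 1.5 rpbp in ZT16 replicate 2 to 31.4 in ZT4 replicate 1, with F24 of 0.370 at 5.24 hr (permutation p = 0.113). Its neighbour Cyp1a1, the classical gene induced by dioxin, did not pass 0.2 rpbp.

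The Cyp4f genes, which oxidize leukotrienes and fatty acids, included the steadiest member. Cyp4f13 ran from 9.1 to 14.5 rpbp (coefficient of variation 0.147), with a limma adjusted p of 0.997. Cyp4f15 ran from 20.4 to 61.7 rpbp. Cyp4f14 was high at ZT0 (23.5 and 29.2 rpbp) and ran down to 4.7 in ZT8 replicate 1, with F24 of 0.472 at 21.1 hr and a permutation p of 0.0604. It was called rhythmic on the log2(rpbp + 1) scale and with the GC trend removed. The other 4 (Cyp4f39, Cyp4f16, Cyp4f18 and Cyp4f37) did not pass 0.7 rpbp.

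Of the remaining Cyp4 genes, Cyp4v3 ran from 10.6 to 27.3 rpbp, and Cyp4a32 from 2.0 to 28.5 rpbp with replicates of ZT4 at 11.7 and 28.5. Of the 80-base windows of Cyp4a32 28.1% occurred in other coding transcripts, and of those of Cyp4v3 8.15%. In the table Cyp4a32 overlaps Cyp4a10 and Cyp4v3 overlaps Klkb1, so both levels are uncertain. Cyp4a12a and Cyp4a12b, a male-predominant pair, are near-identical copies, and 39.8% of the 80-base windows of Cyp4a12a also occurred in Cyp4a12b. Both were highest in ZT0 replicate 1, at 8.5 and 5.4 rpbp. Cyp4a12a reached 6.5 rpbp in ZT16 replicate 2 and stayed at 4.6 or less elsewhere.

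Cyp2b9 (chr7:26958428-26995679), a gene made mostly in female liver, split the libraries. In rpbp it stood at 4.3 and 5.3 at ZT0, 18.8 and 0.2 at ZT4, 46.0 and 79.2 at ZT8, 0.0 and 0.0 at ZT12, 0.1 and 0.2 at ZT16 and 22.1 and 0.3 at ZT20. ZT8 replicate 2, ZT8 replicate 1, ZT20 replicate 1 and ZT4 replicate 1 stood at 18.8 to 79.2 rpbp, the ZT0 libraries at 4.3 and 5.3, and the other 6 at 0.3 or less, so the ZT4 and ZT20 pairs each held a high and a low library. Neither test called it (permutation p = 0.177, limma adjusted p = 0.0827). The 4 Y-linked genes Ddx3y, Eif2s3y, Jarid1d and Uty stood at 4.0 to 16.1 rpbp in all 12 libraries. Of the other female-predominant genes, Cyp2b13 did not pass 1.5 rpbp, Cyp2a4 did not pass 0.4 rpbp, Cyp17a1 did not pass 4.5 rpbp, and Cyp3a44 was listed at 0. Cyp2b10, the gene induced by phenobarbital through the receptor CAR, did not pass 1.7 rpbp in these untreated livers, and Cyp2b19 did not pass 0.1 rpbp.

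Single libraries also decided a pair of low genes. Cyp26a1, the retinoic acid hydroxylase, stood at 28.2 rpbp in ZT20 replicate 1 and at 0.1 to 6.2 in the other 11, with 1.7 in ZT20 replicate 2. Cyp21a1, the steroid 21-hydroxylase of the adrenal cortex, stood at 12.1 rpbp in ZT16 replicate 2 and at 0.1 to 3.3 elsewhere, and in the table its span overlaps those of C4a and C4b. Of the other steroid-synthesis genes that act outside the liver, Cyp11b2 did not pass 0.1 rpbp, and Cyp17a1, also named above, did not pass 4.5 rpbp. Cyp2r1, a vitamin D 25-hydroxylase, ran from 3.4 to 11.6 rpbp and was highest in ZT8 replicate 2. In all, 23 of the 37 members under the threshold did not pass 1 rpbp, among them Cyp1b1, Cyp2s1, Cyp2g1, Cyp27b1 and Cyp3a57.

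Genes that supply P450 enzymes with electrons, haem or regulation were read in the same libraries. Of 28 listed names 26 were in the table, 23 were tested, and 6 were called rhythmic (Por, Ephx1, Nr1i2, Alas1, Dbp and Tef), against the 15.1% of all tested symbols given above. By limma 5 of the 23 differed (all of these but Ephx1), against 7.65%. The list was chosen with results of these data known and its count is no independent evidence. The 17 tested genes not called ranged in mean level from Fdxr (4.05 rpbp) to Nr1i3 (152 rpbp).

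Por (chr5:136165084-136211195), the electron donor of the microsomal P450 enzymes, had values in rpbp of 3.5 and 4.9 at ZT0, 16.2 and 13.7 at ZT4, 26.3 and 22.9 at ZT8, 59.2 and 49.1 at ZT12, 9.6 and 32.2 at ZT16 and 5.9 and 6.1 at ZT20. Both ZT12 libraries lay above all others and the ZT0 and ZT20 libraries below all others. F24 was 0.734 at 11.3 hr (permutation p = 0.00067, adjusted p = 0.0587, limma adjusted p = 0.00986), with a peak-to-trough difference of 3.12 ± 0.38 (SE) on the log2(rpbp + 1) scale, against 1.52 to 2.23 for the 5 rhythmic members. Alas1 (chr9:106136260-106150187), the first and rate-limiting enzyme of haem synthesis, had values in rpbp of 95.7 and 41.0 at ZT0, 19.5 and 11.5 at ZT4, 83.3 and 157.9 at ZT8, 264.3 and 198.4 at ZT12, 76.0 and 275.4 at ZT16 and 25.7 and 39.0 at ZT20. It was lowest at ZT4 and high at ZT12, but the ZT16 replicates were far apart, and the phase was 12.8 hr (permutation p = 0.0214, limma adjusted p = 0.0210).

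Nr1i2, which encodes the xenobiotic receptor PXR, had values in rpbp of 13.8 and 21.2 at ZT0, 20.5 and 20.8 at ZT4, 26.3 and 25.4 at ZT8, 48.9 and 49.3 at ZT12, 25.1 and 17.0 at ZT16 and 28.6 and 27.2 at ZT20. Its ZT12 pair stood above all other libraries, and the phase was 12.3 hr (permutation p = 0.0427, limma adjusted p = 0.0325). That call held in 4 of the 12 fits that left out 1 library. The receptor CAR (Nr1i3) ran from 50.1 to 266.2 rpbp without a call, with ZT4 replicates at 131.5 and 50.8 rpbp.

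Ephx1, the microsomal epoxide hydrolase that acts on P450 products, ranged from 4.7 rpbp in ZT16 replicate 2 to 21.9 in ZT4 replicate 1, with a phase of 3.21 hr (permutation p = 0.0129). After rescaling to equal medians Ephx1 was not called. The PAR bZIP factors, which bind D-boxes and are known to drive P450 and Por genes in liver, peaked in the late light phase, Dbp at 8.38 hr (3.0 to 3.1 rpbp at ZT20 and 42.6 to 50.5 at ZT8) and Tef at 10.1 hr (5.7 to 9.4 rpbp at ZT0 and 46.9 to 49.7 at ZT8). Permutation p was 0.00023 for Dbp and 0.00053 for Tef. The third factor, Hlf, ran from 3.6 to 13.6 rpbp and was not called (permutation p = 0.202). The phases of Por, Alas1 and Nr1i2 lay between 11.3 and 12.8 hr. Those of 4 of the 5 rhythmic members lay between 1.81 and 6.90 hr. Ephx1 (3.21 hr) lay within the range of those 4 members, and Dbp and Tef lay in between. The phase of the fifth member, Cyp3a13, was 13.3 hr. Of all these genes only Cyp2c44 and Dbp kept a permutation p under 0.05 after adjustment. The phases are given as a description, and their difference was not tested.

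**Figure D5:**
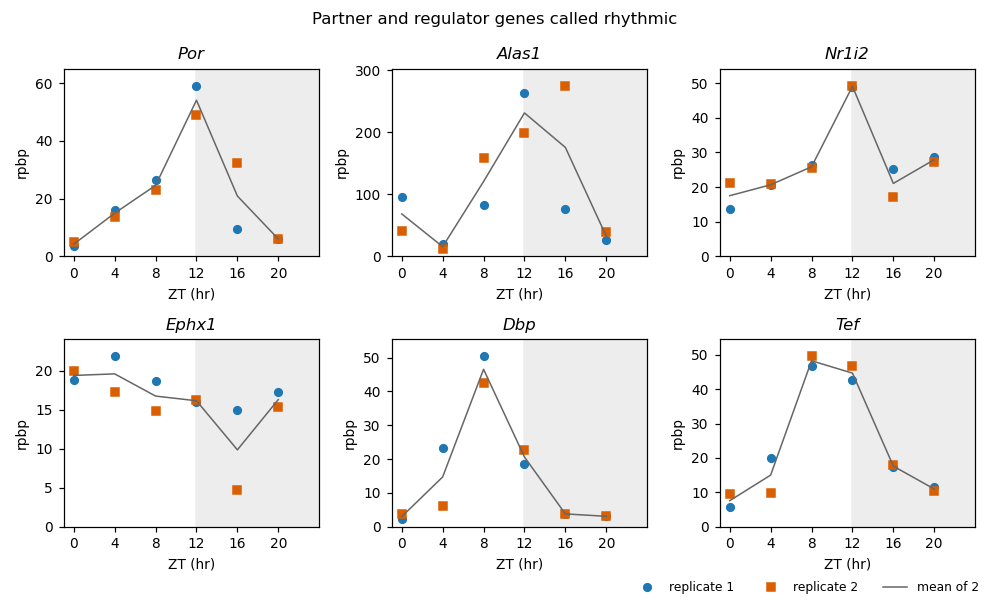
Signal in rpbp (vertical) against ZT in hr (horizontal) for the 6 partner and regulator genes called rhythmic (circle for replicate 1, square for replicate 2, line through the means of 2, dark phase in grey). Por and Nr1i2 are highest at ZT12, where Por reaches 59.2 rpbp, and Dbp is highest at ZT8.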

How the data were processed

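Nascent RNA of 12 mouse liver libraries was measured (6 time points, 2 replicates each, grouped by the labels). The authors aligned 80-base reads to mm9 with TopHat (CASAVA 1.7 is also named in the submitters' processing notes), kept uniquely mapped reads and deposited a signal, the coverage per base of the merged exons of a gene symbol without regard to strand, scaled to equal read numbers and rounded to 1 decimal. The deposited table also holds the authors' own rhythm statistics, which were not used, and 27919 blank lines, which were dropped. It gives no counts, so no count model was fitted, and the read numbers that the study lists for each library were not used here.

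F24 was computed on the linear values, with 100000 permutations of the 12 values of a gene, and Benjamini-Hochberg adjustment over 6284 symbols. Time points were compared with limma 3.58.1 (R 4.3.3) on log2(rpbp + 1). The peak-to-trough difference is that of the cosine fitted in limma. Both tests were tested on simulated data. The study calls the 12 samples independent and does not give the animals behind each, so p-values measure the spread between these samples. Strand and exon GC came from GENCODE M1 (NCBIM37) for 5421 tested symbols. Coordinates are mm9, counted from 1, as in the table. Figures were drawn with matplotlib.

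Every tested member was named, and all 12 values were given for members that either test called and for the 8 highest means. The members, gene lists and tests were chosen with earlier results of these data known. Alternatives were thresholds of 3 and 12 rpbp or none, pseudocounts, an intensity trend, rescaling, GC trend removal, replicate and lane blocks, log values, adjusted p, 10000 permutations, the ratio taken over time-point means, the cosine terms tested by limma, and each library left out.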

Additional observations from a re-analysis of the deposited data

How the results depend on the processing

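Of the 5 rhythmic members, all 5 remained called under thresholds of 3 rpbp, log values, rescaling, GC trend removal, the ratio of time-point means and 10000 permutations. At a threshold of 12 rpbp 4 were called, since Cyp2a5 was not tested there (17.7% of all tested symbols were called). With no threshold (symbols above 0 in every library) 7 were called, with Cyp39a1 and Cyp4f39 added (12.6% of all). The number called was 1 (Cyp2c44) with the adjusted permutation p (0.668% of all tested symbols) and 1 (Cyp2c44) with the cosine terms tested by limma (2.59%). It was 8 with the GC trend removed (Cyp2c37, Cyp2d26 and Cyp4f14 were added, at 17.9% of all tested symbols called). With the lanes as a block it was 7 (with 19.2% of all tested symbols called), of which 3 were among the 5. The other 4 were Cyp2a12, Cyp2c37, Cyp3a25 and Cyp4a31, and of these Cyp2a12, Cyp3a25 and Cyp4a31 had differed between time points by limma. Leaving out each library in turn gave 4 to 7 rhythmic members, while 12.8% to 20.2% of all tested symbols were called. Of the partner and regulator genes called, 1 (Dbp) passed with the adjusted permutation p and 3 (Dbp, Por and Tef) with the cosine terms tested by limma, and leaving out each library gave 4 to 8. The number of members differing between time points was 1 (Cyp2c44) with the lanes as a block and 2 to 9 with each library left out, with 2 without ZT0 replicate 1 and without ZT8 replicate 2, 3 without ZT12 replicate 1 and without ZT12 replicate 2, and 9 without ZT16 replicate 1, where 2.71%, 4.2%, 3.53%, 3.07% and 10.2% of all tested symbols differed, in that order. The cause of these changes was not tested. The correlation of same-numbered deviations was −0.117 to 0.32 over 15 pairs of time points and passed 0.1 in 5. With 2 libraries per time point it cannot settle whether the replicate numbers pair the samples. The study describes 2 independent series of 6 time points. With the replicate block, 6 members were rhythmic (Cyp2c37 was added) and 6 differed between time points (Cyp3a13 in place of Cyp3a25). In that setting 5 partner and regulator genes were rhythmic, and of all tested symbols 15.5% were rhythmic and 7.24% differed. With 2 libraries per time point and no counts in the table, members under 6 rpbp were described and not tested, except in the settings with a lower threshold or none.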
